A study of Mus musculus with 6 samples.

Results

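Apolipoproteins and the proteins that assemble, remodel and take up lipoproteins were examined as 1 group of 30 genes in mouse liver. The members were listed by name from known function, with earlier results of these data already known. There were 14 apolipoproteins, 6 genes of very low density lipoprotein (VLDL) assembly and secretion, and 3 remodelling enzymes or transfer proteins. The others were 3 angiopoietin-like proteins and 4 receptors. All 30 were found among the 54532 genes with an Ensembl identifier, and all 30 passed the filter on low counts that left 12795 genes for testing. The libraries came from the liver of wild-type (WT) C57BL/6J male mice. The 3 HFD libraries (replicates 1 to 3) came from mice on a high-fat diet throughout, and the 3 Allantoin-H libraries (replicates 4 to 6) from mice on the same diet that also received allantoin, the product of uric acid breakdown by uricase, in the drinking water. Both groups had 4 weeks of the diet first and then 4 weeks with or without allantoin. The high dose, 0.3 mg/mL, was assigned from the study's methods, since the labels name the doses used without saying which one these mice drank. The labels' wording on age can be read in more than one way, so no age is given here. Mice on a normal diet and on the lower dose were not analysed here, so the values compare allantoin with HFD alone and say nothing of a return towards a normal liver.

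The liver packages triglyceride and cholesteryl ester onto Apob, with the help of the microsomal triglyceride transfer protein, and secretes the particle as VLDL. Smaller apolipoproteins move between VLDL and high density lipoprotein (HDL), where they activate or restrain the lipases and guide uptake by receptors. HDL is built on Apoa1 and Apoa2 and is remodelled by Lcat, Pltp and lipases.

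The libraries held between 11326372 and 14601457 counts. Genes of the mitochondrial chromosome took 17.1 to 35.5% of an HFD library and 6.68 to 11.1% of an Allantoin-H library. Levels below are normalized counts (CPM) after TMM scaling, a correction for such differences in composition. Of the 12 hepatocyte markers, all 12 were tested, and their summed level was 85599 to 94462 CPM in HFD and 76364 to 107001 CPM in Allantoin-H. Most of that sum was Alb, which was not called (log2 0.13, adjusted p = 0.742). Of the 12, 9 had negative log2 fold changes (median -0.39), the secreted Ttr (-0.79), Trf (-1.33) and Serpina1c (-1.13) were called lower, and Cps1 (1.05) was called higher, by the test described next. In bulk tissue, fewer cells of a type and less RNA per cell cannot be told apart. A gene was called higher or lower when its adjusted p was under 0.05 in edgeR's quasi-likelihood test, with Benjamini-Hochberg adjustment over all 12795 genes. Fold changes are Allantoin-H over HFD, and log2 fold changes are given with their standard error (SE). The labels do not say whether the libraries of a group came from separate animals, so p-values measure the spread between these samples, which may be technical.

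The members moved in both directions, and the direction differed between the apolipoproteins and the other members. Allantoin-H libraries had less of most small apolipoproteins (Apoa1, Apoa2, Apoc1, Apoc3, Apoc4, Apof and Apon) and of Angptl8. They had more of Apob, Apom, Mttp, Pltp, Lipg and Lsr. In counts, 6 members were called higher, against 11.3% of all genes tested, and 8 were called lower, against 13.0% of all genes tested. The other 16 were not called, and calls in either direction covered 24.3% of all genes tested. The groups did not overlap for 18 members (8 higher, 10 lower), against 44.3% of all genes tested (22.4% higher, 21.9% lower). The median log2 fold change was -0.86 over the 14 apolipoproteins and 0.33 over the other 16 members, beside -0.03 over all genes tested.

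**Figure D1:**
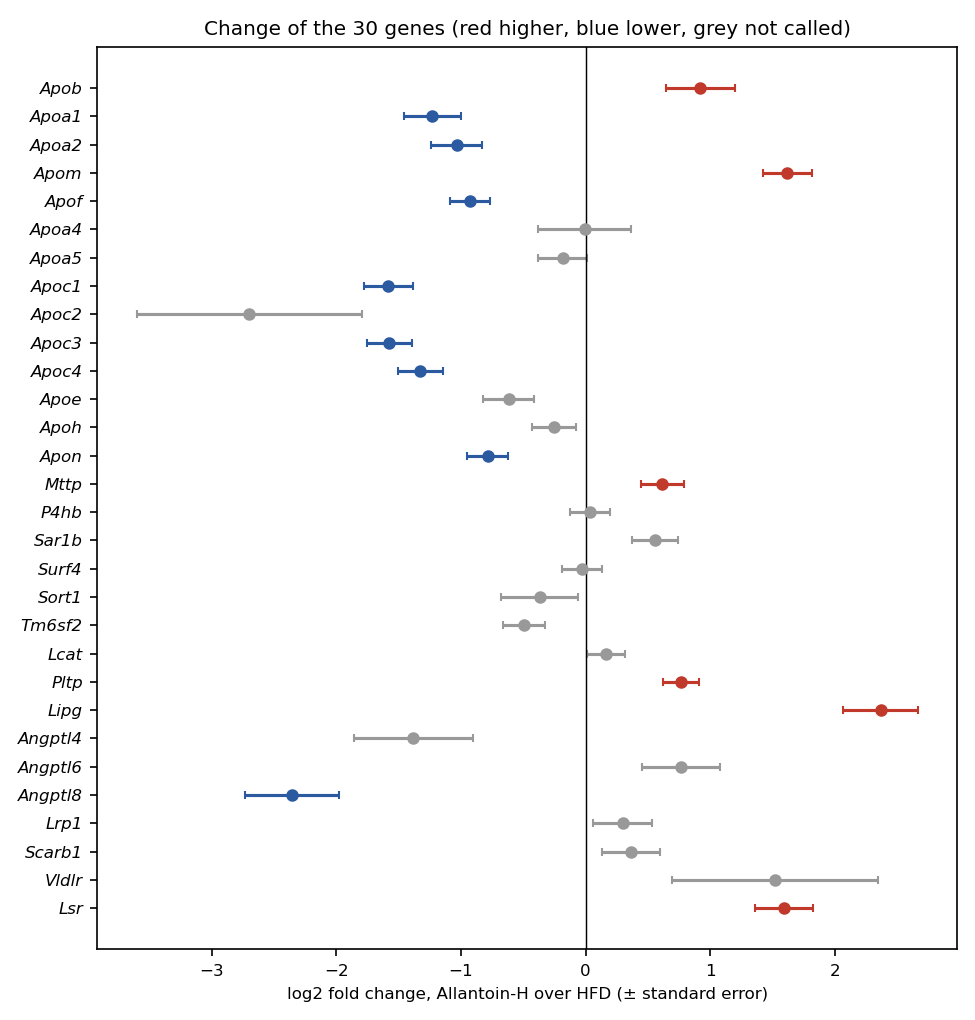
Log2 fold change (Allantoin-H over HFD) of the 30 members with its standard error, grouped by role. Points to the right of 0 are higher in Allantoin-H libraries and points to the left are lower. The 7 apolipoproteins called lower lie on the left, while Apob and Apom, the 2 called higher, lie on the right.

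Several of these genes sit side by side in the genome (GRCm38). On chromosome 9, Apoa1 (46228580 to 46230466) is followed by Apoc3 (46232933 to 46235636) after 2466 bases, by Apoa4 after a further 5059 bases and by Apoa5 after a further 25173 bases. On chromosome 7, Apoc2, Apoc4, Apoc1 and Apoe lie in that order on the minus strand, with gaps of 141, 8001 and 3448 bases. Apon and Apof lie 12774 bases apart on chromosome 10. Apon and Apof both fell. In the chromosome 9 cluster Apoa1 and Apoc3 fell, and Apoa4 and Apoa5 were not called. In the chromosome 7 cluster all 4 log2 fold changes were negative, Apoc1 and Apoc4 fell, and Apoc2 and Apoe were not called. Differences in change between neighbours were not tested.

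Bases just upstream of the RefSeq start site are printed for 6 members, chosen after their values were seen. They are Apoa1, Apoa2 and Angptl8, which were lower, Apob and Lsr, which were higher, and Apoa5, the neighbour of Apoa1 that was not called. The sequences are from RefSeq (GRCm38.p6), read 5′ to 3′ on the gene's strand, without bases of annotated exons. Capitals mark TATAAA, the spelling of a TATA box, wherever it occurs in the window. In Apoa2 it starts 212 bases upstream. Capitals also mark the E-box, spelled CACGTG, and the FOXO site, spelled GTAAACA, on either strand.
Apoa1, chr9:46228380-46228579, plus strand: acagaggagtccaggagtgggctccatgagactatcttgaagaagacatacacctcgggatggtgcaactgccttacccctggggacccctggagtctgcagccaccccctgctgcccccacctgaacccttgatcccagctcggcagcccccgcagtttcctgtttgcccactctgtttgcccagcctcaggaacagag
Apoa2, chr1:171224804-171225053, plus strand: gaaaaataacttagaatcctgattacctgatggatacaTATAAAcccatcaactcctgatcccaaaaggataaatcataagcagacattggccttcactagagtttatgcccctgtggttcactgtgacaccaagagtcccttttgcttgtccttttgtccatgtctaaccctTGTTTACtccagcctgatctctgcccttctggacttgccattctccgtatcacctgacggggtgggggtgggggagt
Apoa5, chr9:46268383-46268632, plus strand: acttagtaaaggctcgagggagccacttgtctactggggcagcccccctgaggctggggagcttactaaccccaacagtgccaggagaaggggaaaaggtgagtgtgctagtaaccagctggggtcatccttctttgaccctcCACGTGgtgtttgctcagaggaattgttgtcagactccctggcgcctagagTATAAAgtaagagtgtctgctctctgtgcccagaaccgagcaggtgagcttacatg
Apob, chr12:7977427-7977647, plus strand: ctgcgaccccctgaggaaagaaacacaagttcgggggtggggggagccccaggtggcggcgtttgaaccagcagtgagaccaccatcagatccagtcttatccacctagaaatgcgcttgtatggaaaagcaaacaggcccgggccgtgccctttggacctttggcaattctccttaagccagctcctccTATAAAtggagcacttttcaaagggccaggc
Angptl8, chr9:21835260-21835509, plus strand: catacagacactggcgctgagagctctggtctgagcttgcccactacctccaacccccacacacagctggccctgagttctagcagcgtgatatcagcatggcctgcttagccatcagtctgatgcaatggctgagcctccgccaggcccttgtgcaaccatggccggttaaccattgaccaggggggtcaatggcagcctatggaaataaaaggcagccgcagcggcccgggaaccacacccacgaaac
Lsr, chr7:30973470-30973719, minus strand: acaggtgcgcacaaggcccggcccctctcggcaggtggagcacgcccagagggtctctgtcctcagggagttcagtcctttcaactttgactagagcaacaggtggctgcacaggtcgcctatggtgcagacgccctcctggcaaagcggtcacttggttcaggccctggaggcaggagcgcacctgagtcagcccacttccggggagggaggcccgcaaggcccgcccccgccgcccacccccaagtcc
RefSeq promoters were at hand for 22 of the 30 members and not for Sort1, Tm6sf2, Scarb1, Apof, Angptl4, Lipg, Apoc3 and Apoc1. In the 250 bases upstream, TATAAA occurred in Apoa2, Apoa5, Apob and Apoe, and in 12.4% of all 32851 promoter entries. CACGTG occurred in Apoa5 and in 6.02% of all entries, and GTAAACA in Apoa2 and Apoh and in 3.17% of all entries. The motifs CAAAGGTCA of HNF4 or PPAR, CAAAGTCCA of HNF4, TGACGTCA of CREB and TTGCNNCAA of C/EBP were searched on both strands. So were a direct repeat spaced by 1 base, the FXR inverted repeat and the HNF1 site. Each of these occurred in 0 of the 22 members and in at most 1.74% of all entries. A match describes letters in this window and nothing more.

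Apob, the structural protein of VLDL (Ensembl ENSMUSG00000020609, chromosome 12, 7977648 to 8016835, plus strand), stood at 2440.0, 2633 and 4632 CPM in the HFD libraries and at 5109, 6801 and 6483 CPM in the Allantoin-H libraries. The groups did not overlap, although HFD replicate 3 came close to the lowest Allantoin-H library. Apob was 1.90-fold higher (log2 0.92, SE 0.28, adjusted p = 0.0417). Per kilobase of transcript it moved from rank 267 to rank 129 among 12787 genes. The call was lost when any library other than HFD replicate 3 was left out (adjusted p between 0.0724 and 0.134), and without HFD replicate 3 it held (log2 1.28, adjusted p = 0.00646).

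The main HDL proteins fell. Apoa1, the chief protein of HDL (ENSMUSG00000032083), stood at 20191, 14235 and 13408 CPM in HFD and at 6858, 7081 and 6449.7 CPM in Allantoin-H. Every HFD library was above every Allantoin-H library, and the HFD mean was 2.35-fold higher (log2 -1.23, SE 0.23, adjusted p = 0.0079). Apoa2, the second protein of HDL (chromosome 1, 171225054 to 171226379), stood at 11300, 10012 and 9789 CPM in HFD and at 4892, 4400 and 5900.1 CPM in Allantoin-H. Its log2 fold change was -1.03 (SE 0.21, adjusted p = 0.00946), with no overlap. Despite the fall both stayed among the most abundant transcripts per kilobase, with Apoa1 at rank 10 in both groups and Apoa2 at rank 7 in HFD and 5 in Allantoin-H. The mitochondrial mt-Nd1, mt-Nd2 and mt-Nd4 lay above Apoa2 per kilobase in HFD and below it in Allantoin-H. The call of Apoa2 was lost without Allantoin-H replicate 4 or 5.

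Apom rose while the other HDL apolipoproteins fell. Apom, which carries sphingosine-1-phosphate on HDL (ENSMUSG00000024391, chromosome 17, 35128997 to 35132050, minus strand), stood at 24.0, 23.6 and 26.6 CPM in HFD and at 78.1, 91.9 and 58.0 CPM in Allantoin-H. It was 3.07-fold higher (log2 1.62, SE 0.20, adjusted p = 0.00292), from 24.7 ± 1.62 to 76.0 ± 17.04 CPM (SD, n = 3 each). Apof, also known as lipid transfer inhibitor protein, stood at 712, 841 and 700.2 CPM in HFD and at 368, 410 and 407 CPM in Allantoin-H (log2 -0.93, SE 0.16, adjusted p = 0.00621). Of these 4 HDL apolipoproteins, 1 was higher and 3 were lower, against 11.3% and 13.0% of all genes tested.

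**Figure D2:**
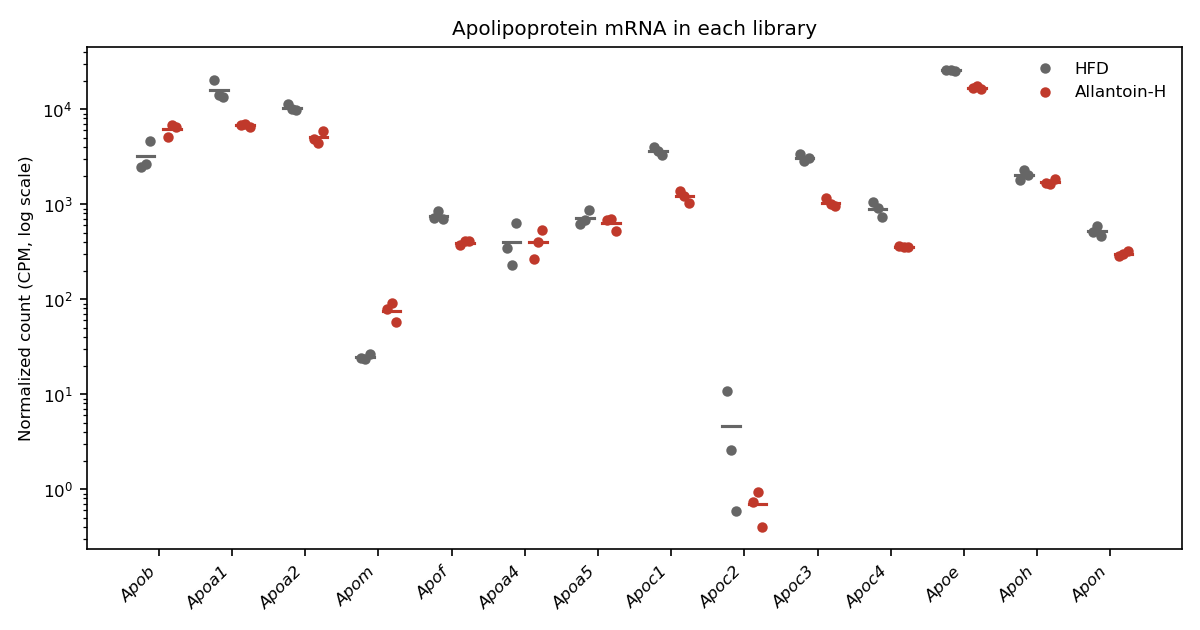
Level of each of the 14 apolipoproteins in every library, as TMM-scaled CPM on a log axis, with 1 point per library and a bar at the group mean. The Allantoin-H points of Apob and Apom lie above all HFD points, and those of Apoa1, Apoa2, Apoc1, Apoc3, Apoc4, Apof and Apon lie below them.

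Among the 7 exchangeable apolipoproteins, 3 were called lower and 0 higher in edgeR's test, against 13.0% and 11.3% of all genes tested. All 7 log2 fold changes were negative, although those of Apoa4 and Apoa5 turned positive when libraries were scaled by size alone. Apoc3, an inhibitor of lipoprotein lipase and of remnant uptake (ENSMUSG00000032081), stood at 3361, 2841 and 3074 CPM in HFD and at 1156, 995 and 962 CPM in Allantoin-H. Apoc1, which restrains lipoprotein uptake (ENSMUSG00000040564, chromosome 7, 19689481 to 19692660), stood at 4042, 3598 and 3305 CPM in HFD and at 1394, 1221 and 1037 CPM in Allantoin-H. Both groups were tight and far apart, and the log2 fold change was -1.58 for each gene (SE 0.18, adjusted p = 0.00242 for Apoc3, and SE 0.20, adjusted p = 0.00292 for Apoc1). Apoc4 (chromosome 7, 19678083 to 19681479) stood at 1046, 905 and 737 CPM in HFD and at 360.1, 359 and 353 CPM in Allantoin-H (log2 -1.33, SE 0.18, adjusted p = 0.00351).

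Apoe, a ligand for the uptake of remnants (ENSMUSG00000002985, chromosome 7, 19696109 to 19699188), was not called although its groups did not overlap. It stood at 26002, 25892 and 25474 CPM in HFD and at 16647, 17667 and 16168 CPM in Allantoin-H (log2 -0.62, SE 0.20, adjusted p = 0.0558). It passed the threshold with DESeq2, with limma-voom, without HFD replicate 1 and with the mitochondrial chromosome left out. With libraries scaled by size alone, its log2 fold change shrank to -0.20 (edgeR adjusted p = 0.575). With the trend over length and GC content removed, it shrank to -0.23 (edgeR adjusted p = 0.435). Per kilobase, Apoe went from 18316 to 11951 CPM, while its rank went from 8 to 3. The mitochondrial mt-Nd1 and mt-Nd2 lay above it in HFD (31502 and 33092 CPM per kilobase) and below it in Allantoin-H (7634 and 8222).

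The triglyceride-lowering Apoa5, an activator of lipolysis, stood at 625, 682 and 860.3 CPM in HFD and at 691, 692 and 528 CPM in Allantoin-H, and the groups overlapped (log2 -0.18, SE 0.19, adjusted p = 0.526). Apoa4, an apolipoprotein of intestine and of fatty liver, ranged from 229 to 638 CPM in HFD and from 267 to 533 CPM in Allantoin-H (log2 -0.01, SE 0.37, adjusted p = 0.993). An antisense gene, Gm47528, covers 634 of its exon bases and held 321 counts in HFD replicate 3, against 1 to 13 in the other libraries. Apoc2, the activator of lipoprotein lipase, had 99, 26 and 7 counts in HFD and 10, 16 and 6 in Allantoin-H, so that HFD replicate 1 set most of its difference (log2 -2.70, SE 0.90, adjusted p = 0.058). It shares 646 exon bases with Gm44805 on the same strand, which held 0 to 2 counts per library.

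Apon stood at 515, 589 and 465 CPM in HFD and at 288, 300.1 and 322 CPM in Allantoin-H (log2 -0.79, SE 0.16, adjusted p = 0.011), and its call was lost without Allantoin-H replicate 4 or 5. Apoh, a phospholipid-binding plasma protein, ranged from 1797 to 2289 CPM in HFD and from 1621 to 1844 CPM in Allantoin-H (log2 -0.26, SE 0.18, adjusted p = 0.319).

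Of the 6 genes of VLDL assembly and secretion, 1 was called higher and 0 lower in edgeR's test. The shares over all genes tested were 11.3% and 13.0%. Mttp, the large subunit of the microsomal triglyceride transfer protein that loads lipid onto Apob (chromosome 3, 138089854 to 138144968), stood at 131, 140.3 and 179 CPM in HFD and at 233, 238 and 220.03 CPM in Allantoin-H. It was 1.53-fold higher with no overlap (log2 0.62, SE 0.17, adjusted p = 0.0307), and like Apob it lost its call when any library other than HFD replicate 3 was left out (adjusted p between 0.0587 and 0.115). P4hb, the small subunit of the same complex, differed by log2 0.04 (SE 0.16, adjusted p = 0.884).

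Sar1b, the GTPase of the COPII coat that exports lipoproteins from the endoplasmic reticulum, stood at 129.7, 163 and 197 CPM in HFD and at 230.3, 230.1 and 259.9 CPM in Allantoin-H. The groups did not overlap, but the test fell short (log2 0.56, SE 0.19, adjusted p = 0.0588). It passed in 7 of 17 alternatives, among them DESeq2 (adjusted p = 0.0248), limma-voom (adjusted p = 0.0452) and the fit without HFD replicate 3. Tm6sf2, which promotes the lipidation of VLDL, stood at 21.1, 20.05 and 21.6 CPM in HFD and at 13.7, 16.7 and 13.97 CPM in Allantoin-H, again with no overlap and no call (log2 -0.50, SE 0.17, adjusted p = 0.0589). Surf4, an export receptor for lipoproteins, and Sort1, a sorting receptor, overlapped between groups (log2 -0.03 and -0.37, adjusted p = 0.912 and 0.411).

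Of the 3 remodelling genes, 2 were called higher, against 11.3% of all genes tested. Pltp, which transfers phospholipid to HDL, stood at 19.98, 19.3 and 18.8 CPM in HFD and at 34.0, 32.1 and 32.8 CPM in Allantoin-H. The libraries of each group lay close together, at 19.3 ± 0.589 and 33.0 ± 0.960 CPM (SD, n = 3 each), and Pltp was 1.70-fold higher (log2 0.77, SE 0.15, adjusted p = 0.00821). Lipg, endothelial lipase, a phospholipase of HDL, stood at 1.64, 1.98 and 1.34 CPM in HFD and at 8.72, 9.64 and 7.22 CPM in Allantoin-H, 5.17-fold higher at a low level (log2 2.37, SE 0.30, adjusted p = 0.00301). Lcat, which esterifies the cholesterol of HDL, ranged from 263 to 294 CPM in HFD and from 286 to 337 CPM in Allantoin-H (log2 0.16, SE 0.15, adjusted p = 0.465). Beside these values, the 12 macrophage markers summed to 192 to 463 CPM in HFD and 518 to 593 CPM in Allantoin-H, with 3 of 12 called higher. The 12 stellate cell markers summed to 247 to 399 CPM and 508 to 593 CPM, with 7 of 12 called higher, and the 12 endothelial markers to 128 to 277 CPM and 226 to 356 CPM, with 2 called higher and 1 lower. Over all genes tested, 11.3% were called higher and 13.0% lower. The part of these cell types in the results was not tested. Exons of Pltp overlap those of Ctsa on the opposite strand over 495 bases, and whether the counting used strand is not given in the sources used here.

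Angptl8, which takes part in blocking lipoprotein lipase and is known to follow feeding and insulin (ENSMUSG00000047822, chromosome 9, 21835510 to 21837347), stood at 47.4, 20.6 and 61.3 CPM in HFD and at 6.23, 9.11 and 9.85 CPM in Allantoin-H. The lowest HFD library was above the highest Allantoin-H library, and the HFD mean was 5.13-fold higher (log2 -2.36, SE 0.38, adjusted p = 0.00476). Angptl4, a lipase inhibitor of fasting, stood at 216, 280.4 and 55.8 CPM in HFD and at 86.6, 62.2 and 62.9 CPM in Allantoin-H, with HFD replicate 3 below all Allantoin-H libraries (log2 -1.38, SE 0.48, adjusted p = 0.063). Without HFD replicate 3 its log2 fold change was -1.81 (adjusted p = 0.00171), and without HFD replicate 2, its highest library, -0.95 (adjusted p = 0.181). Angptl6 stood at 6.88, 12.2 and 4.85 CPM in HFD and at 13.4, 14.4 and 12.8 CPM in Allantoin-H, without overlap and not called (log2 0.77, SE 0.32, adjusted p = 0.106). HFD replicate 2 also held transcripts that define fat cells, with 520 counts of Adipoq and 498 of Plin1, against 0 or 1 count of either in every other library. Of the 12 adipocyte markers, 6 were tested and 0 called by edgeR, against 24.3% of all genes tested in either direction. The 12 summed to 3307 to 4347 CPM in HFD and 2620.1 to 3957 CPM in Allantoin-H. Most of that sum was Car3, at 2932 to 4140 CPM in HFD and 2473 to 3725 CPM in Allantoin-H. Fabp4 stood at 3.71, 256 and 11.1 CPM in HFD and at 6.82, 2.78 and 9.85 CPM in Allantoin-H. The part of fat cells in the level of Angptl4 was not tested.

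Of the 4 receptors, 1 was called higher, against 11.3% of all genes tested. Lsr, the lipolysis-stimulated lipoprotein receptor (ENSMUSG00000001247, chromosome 7, 30957770 to 30973464, minus strand), stood at 8.19, 11.4 and 13.5 CPM in HFD and at 30.9, 40.7 and 28.1 CPM in Allantoin-H. It was 3.02-fold higher with no overlap (log2 1.59, SE 0.23, adjusted p = 0.00396). An antisense gene, Gm4673, covers 946 of its exon bases and held 36 to 130 counts per library. Lrp1, a remnant receptor, Scarb1, the HDL receptor, and Vldlr overlapped between groups, with log2 fold changes of 0.30, 0.37 and 1.52 (adjusted p = 0.385, 0.273 and 0.207).

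**Figure D3:**
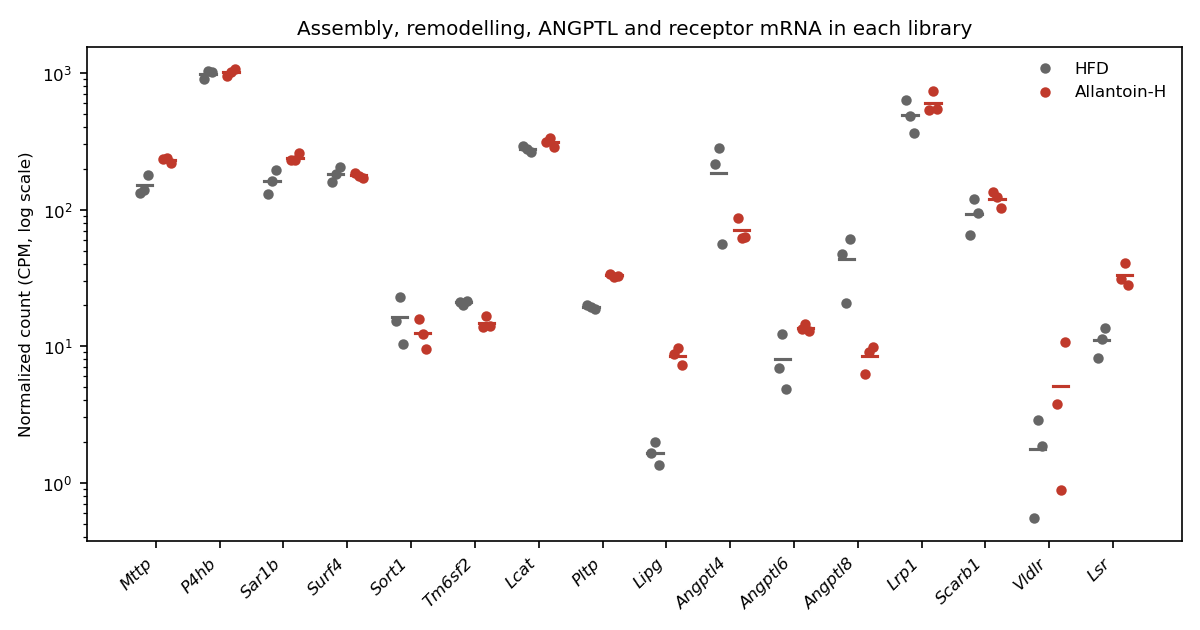
Level of the 16 members other than apolipoproteins in every library, as TMM-scaled CPM on a log axis, with 1 point per library and a bar at the group mean. Mttp, Pltp, Lipg and Lsr lie higher in all 3 Allantoin-H libraries, and Angptl8 lies lower in all 3.

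The make-up of the apolipoprotein pool was then compared within each library, where scaling between libraries plays no part. Apob made up 3.37, 4.07 and 7.11% of the summed apolipoprotein counts in HFD and 12.8, 16.2 and 15.8% in Allantoin-H. Apoa1 made up 23.5 ± 3.88% in HFD and 16.6 ± 0.792% in Allantoin-H, Apoc1 5.40 ± 0.287% and 2.98 ± 0.493%, and Apoc3 4.58 ± 0.174% and 2.54 ± 0.318% (SD, n = 3 each). The share of Apoe, 38.3 ± 2.14% and 41.1 ± 1.47%, overlapped between groups. With 3 libraries a group, the two-sided exact permutation test cannot go below p = 0.1, which was reached by Apob, Apoa1, Apoa2, Apom, Apoc1, Apoc3, Apoc4 and Apoh (0.175 after adjustment over the 14 shares). The share of Apoh was larger in Allantoin-H (3.05 and 4.18%), although its level was not called (log2 -0.26). The 14 shares of a library form a whole, so smaller shares of some genes raise those of others. Counts grow with transcript length, so these are shares of reads and not of molecules. Per kilobase, Apoa2 no longer separated the groups (29.1 and 27.8%, exact permutation p = 0.7), while Apoe (26.8 and 34.0%) and Apoa5 (0.423 and 0.722%) reached the lower limit of 0.1.

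**Figure D4:**
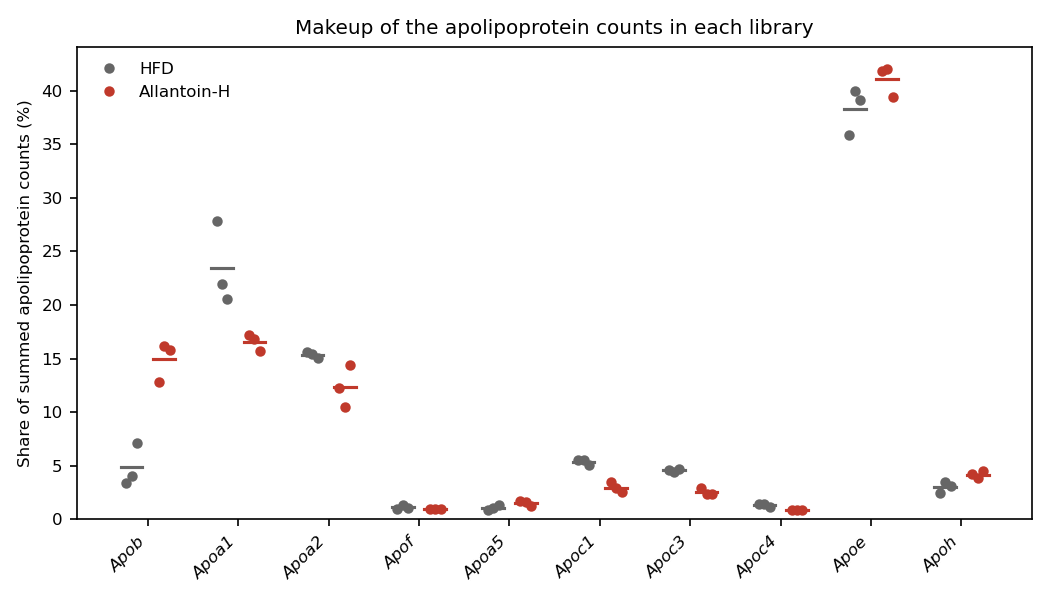
Share of the summed apolipoprotein counts (percent) held by the more abundant apolipoproteins in each library. The share of Apob is 3.37 to 7.11% in HFD and 12.8 to 16.2% in Allantoin-H, while the shares of Apoa1, Apoc1 and Apoc3 are smaller in Allantoin-H.

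Ratios between members were chosen after their values were seen and are given without a test. There were 0.121, 0.185 and 0.345 counts of Apob per count of Apoa1 in HFD, and 0.745, 0.960 and 1.01 in Allantoin-H. Counts of Apoc3 per count of Apoa5, a pair with opposite effects on lipolysis, were 5.37, 4.16 and 3.57 in HFD and 1.67, 1.44 and 1.82 in Allantoin-H. Counts of Apoc1 per count of Apoe were 0.155, 0.139 and 0.130 in HFD and 0.0837, 0.0691 and 0.0641 in Allantoin-H. Of the 7 ratios computed, 2 overlapped between groups. Counts of Apoc3 per count of Apoa1 were 0.166 to 0.229 in HFD and 0.141 to 0.169 in Allantoin-H, and counts of Mttp per count of Apob were 0.0386 to 0.0539 and 0.0339 to 0.0456.

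Together the 30 members took 5.66, 6.05 and 6.42% of all reads counted in HFD and 5.07, 5.24 and 4.89% in Allantoin-H. The exact permutation test over libraries, two-sided, gave p = 0.1, its lower limit here. With the mitochondrial chromosome left out the shares were 8.11 ± 0.711% and 5.54 ± 0.0721% (SD, n = 3 each).

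Short transcripts tended to be lower in Allantoin-H across all genes. The median log2 fold change ran from -0.59 in the shortest to 0.15 in the longest of 10 equal bins of transcript length. Many apolipoproteins are short. The 16 members under 2000 bases had 1 call higher and 7 lower (median -0.70). The 14 longer members had 5 higher and 1 lower (median 0.33). Genes of all lengths together were called higher in 11.3% and lower in 13.0% of those tested. With the trend over length and GC content removed, the median of the apolipoproteins was -0.61. Apoa1 (log2 -0.80, adjusted p = 0.0324), Apoc1 (-0.97), Apoc3 (-1.04), Apoc4 (-1.35), Apof and Apon (both -0.74) were still called lower, and Apob (0.81, adjusted p = 0.0425) and Apom (1.97) still higher. Over all genes, 11.2% were called higher and 12.1% lower in that fit. Apoa2 (-0.49, adjusted p = 0.114) and Mttp (0.47, adjusted p = 0.0525) lost their calls. Sar1b (0.68, adjusted p = 0.0132), Angptl6 (1.21, adjusted p = 0.0239) and Lcat (0.46, adjusted p = 0.0461) were called higher in that fit, which gave 8 members higher and 7 lower.

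**Figure D5:**
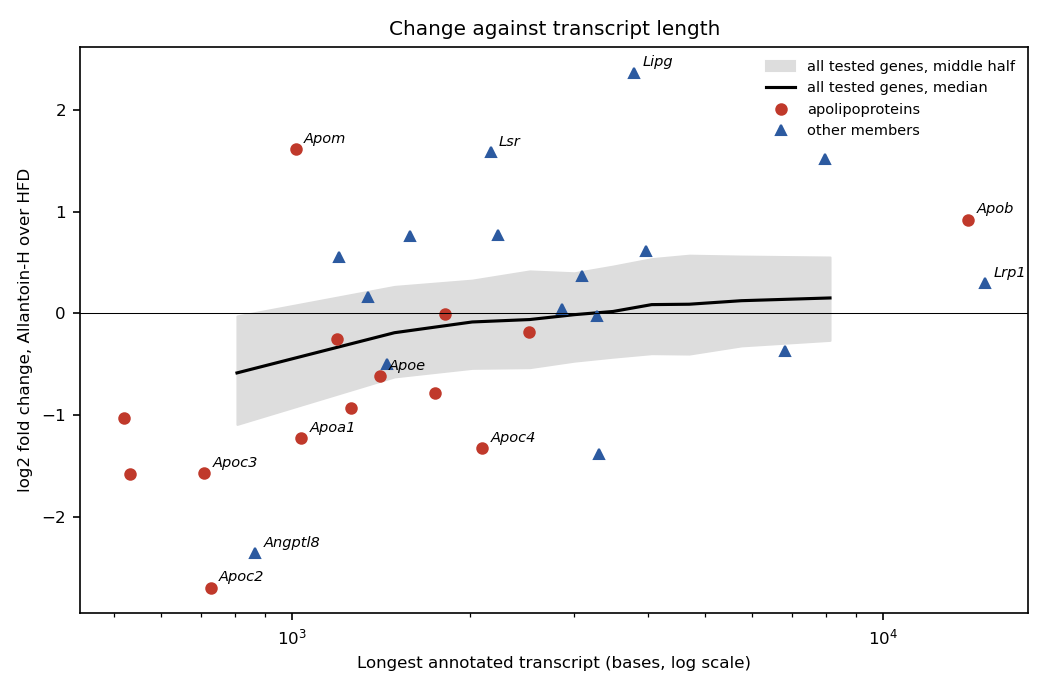
Log2 fold change (Allantoin-H over HFD) of the 30 members against transcript length in bases on a log axis, with the median of all tested genes in 10 bins of length. The median rises from -0.59 to 0.15 with length, and Apoa1 and Apoc4 lie below it while Apom and Lsr lie above it. The grey band is the range from the lower to the upper quartile of all tested genes.

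Of 42 other genes of the pathway, 41 were tested, 7 were called higher and 5 lower, beside 11.3 and 13.0% of all genes, shares not far from those of the list. The median change was 0.12 (log2), beside -0.03 over all genes. Among receptors and their control, Mylip, a ubiquitin ligase (log2 1.48, adjusted p = 0.0174), Lrp5 (0.84, adjusted p = 0.01) and Sdc1, a remnant-binding proteoglycan (0.76, adjusted p = 0.0345), rose, and the scavenger receptor Stab1 fell (-0.94, adjusted p = 0.0153).

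A1cf, the RNA-binding partner of the Apob mRNA editing enzyme, went from 21.8 ± 3.26 to 83.0 ± 21.2 CPM (SD, n = 3 each, log2 1.93, adjusted p = 0.00242). The editing enzyme Apobec1 was not called (-0.38, adjusted p = 0.395). Among genes of endoplasmic reticulum export, Mia2 (0.95, adjusted p = 0.00679) and Sec23a (0.71, adjusted p = 0.0152) rose, and Sec24a (-0.66, adjusted p = 0.026), Smlr1 (-0.82, adjusted p = 0.0246) and Pla2g12b (-0.55, adjusted p = 0.0458) fell. Lmf1, which matures lipases, fell (-0.93, adjusted p = 0.0185). Without Allantoin-H replicate 4, 5 or 6, the pathway calls were 4, 2 and 5 higher and 1, 0 and 1 lower. Calls over all genes fell in the same fits, to 4.51, 3.48 and 5.31% higher and to 5.29, 4.27 and 6.29% lower.

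Of 21 transcription regulators known to act on these genes, 6 were called higher and 2 lower, against 11.3% and 13.0% of all genes tested. Ppara, the fatty acid sensor that represses Apoc3, was higher (log2 2.02, adjusted p = 0.0039), with its partner Rxra (0.92, adjusted p = 0.0079) and with Nr5a2 (0.54), Srebf1 (0.64) and Ppargc1a, which went from 4.01 ± 1.02 to 8.06 ± 1.37 CPM (SD, n = 3 each). Mlxipl, which encodes the glucose-responsive factor ChREBP (-1.95, adjusted p = 0.0051), and Nr0b2, the repressor SHP (-1.81, adjusted p = 0.0072), were lower. Hnf4a, a main activator of apolipoprotein genes, was not called (-0.11, adjusted p = 0.735). These are RNA levels and not activities of the regulators, and their part in the changes of the members was not tested.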

How the data were processed

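Liver RNA of 6 samples was sequenced after library preparation with a SMARTER kit, and the authors deposited 1 table of raw read counts per gene. The submitters' processing notes name GRCm38 (mm10). The aligner, the counting tool and the use of strand are not given in the sources used here. Of 54961 entries, 429 without an Ensembl identifier were left out (0.197 to 0.306% of counts per library). Symbols, positions and transcript lengths came from GENCODE M21, which held 54495 of the identifiers. Genes were tested with edgeR 4.0.16 in R 4.3.3 (TMM, filterByExpr, quasi-likelihood test, group as the only term, Benjamini-Hochberg adjustment over 12795 genes), and the scripts were tested on simulated data. Alternatives used DESeq2 1.42.0, limma 3.58.1, other scalings, filters and thresholds, removal of a length and GC trend, and each library left out in turn. Depth was 11326372 to 14601457 counts per library. All members are accounted for. Library values were printed for the called and the most abundant members, and other genes were named where called or where they moved beside a result. Members and lists were chosen with earlier results of these data known. Some genes counted in the lists are not reported here by name.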

Additional observations from a re-analysis of the deposited data

How the results depend on the processing

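No paired analysis was possible because the groups share no replicate numbers. Over 17 alternative fits, 0 of the 14 called members changed direction and 9 kept their call in each (Apoa1, Apom, Apoc1, Apoc3, Apoc4, Pltp, Lipg, Angptl8 and Lsr). Scaling by library size alone moved the median of all genes by 0.41 (log2). It gave 9 members higher (24.7% of all genes) and 5 lower (5.27%), 16 pathway genes higher and 0 lower in edgeR's test, a members' median of 0.30, and log2 fold changes of 0.37 for Apoa4, 0.22 for Apoa5, 0.15 for Apoh, 0.37 for Surf4 and 0.0592 for Sort1, and Apoa2, Apof and Apon lost their calls. With 1 library left out, members called higher ran from 4 to 7 (3.48 to 13.4% of all genes) and lower from 6 to 10 (4.27 to 15.2%), pathway genes higher from 2 to 9 and lower from 0 to 5, and the members' median from -0.20 (without HFD replicate 1) to 0.0149 (without HFD replicate 3). At an adjusted p under 0.01, 2 pathway genes were higher and 0 lower in edgeR's test, against 3.46% and 4.48% of all genes. Apoa4, never called, turned positive with upper-quartile factors (0.0146), with limma-voom (0.0673), with genes unfiltered (0.031), with a minimum of 10 counts in each library (0.0078), without Allantoin-H replicate 4 (0.23) and with the length and GC trend removed (0.22), and ran from -0.29 to 0.49 (without HFD replicate 3) with 1 library left out. With 1 library left out P4hb ran from -0.0173 to 0.0861 and Surf4 from -0.12 to 0.0671, and Surf4 was 0.0092 unfiltered. Per kilobase, the differences in share turned to 0.0197 percentage points for Apof and 0.0568 for Apon, and that of Apon ran from -0.0709 to 0.0284 with 1 library left out. The causes were not tested. Depth limits Apoc2, Vldlr and Lipg, which have the fewest counts.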

Other observations

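Other genes that carry an Apo symbol but are not lipoprotein components in this list were also read. Of 11, 7 were tested, with 1 called higher and 2 lower, against 11.3% and 13.0% of all genes tested. Apol7a was higher, at 78.4 ± 5.91 CPM in HFD and 123 ± 11.8 CPM in Allantoin-H (log2 0.65, edgeR adjusted p = 0.019). Apol9b was lower, at 236 ± 36.0 and 131 ± 25.6 CPM (-0.85, edgeR adjusted p = 0.0167), and Apol10b was lower at a low level, at 1.61 ± 0.519 and 0.321 ± 0.134 CPM (-2.26, edgeR adjusted p = 0.019; SD, n = 3 each). Apoo and Apool, which belong to the mitochondrial cristae complex, were not called (-0.20 and 0.27).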
